A study of Mus musculus with 9 samples.

Results

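The 26S proteasome is the protease that degrades ubiquitin-tagged proteins, and the genes described here encode its subunits, its activators and the chaperones that assemble it. They were chosen by symbol: a probe set was taken where the array platform's annotation gave it a single symbol made of Psm, a letter from a to g and a number. This found 56 probe sets for 44 proteasome genes, of 8251 genes with a single symbol on the array, and the brightest probe set stands for a gene that has more than 1. The 44 genes are 7 of the 20S alpha ring, 7 of the constitutive 20S beta ring, 3 immunoproteasome genes, 6 ATPases and 11 non-ATPase subunits of the 19S cap, 3 activators and 7 assembly genes. All 44 passed the filter on low values. Psmc3ip and Psme3ip1 match the symbol pattern but encode no proteasome subunit, so they are counted apart. Another 2 matching probe sets carry several symbols and name no gene here, and Psme2, Psma8, Psmb11 and Psmf1 were not analysed here.

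Each of 9 mice gave ventricular RNA for its own one-colour oligonucleotide array, and the mice fall into 3 groups of 3. The caPI3K mice were transgenic for phosphoinositide 3-kinase (PI3K) in a constitutively active form, with hearts stated to be 20% larger than in wild type littermates. The dnPI3K mice carried a dominant negative PI3K, with hearts stated to be 17% smaller, and the NTG mice were non-transgenic controls for both. The labels name neither the promoter of a transgene nor the strain, age or sex of the mice. The comparisons set the constitutively active and the dominant negative form against the same controls, and the labels give no measure of PI3K activity. Values are normalized intensities. A difference between groups is in log2 units from a limma fit over all 10645 probe sets tested, and a gene is said to have risen or fallen only where its Benjamini-Hochberg adjusted p was below 0.05.

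The proteasome has a barrel-shaped 20S core of stacked rings, the outer made of alpha and the inner of beta subunits. Psmb5, Psmb6 and Psmb7 hold its proteolytic sites, and interferon replaces them with Psmb8, Psmb9 and Psmb10 in the immunoproteasome. The 19S cap binds ubiquitin chains, unfolds the substrate with a ring of ATPases and feeds it into the core. Other activators, among them the large protein Psme4 (PA200), dock on the same end of the core without ATPase activity. In muscle, PI3K acts through the kinase Akt to restrain FoxO factors, which are known to induce ubiquitin ligases of muscle wasting.

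All arrays carried ventricular muscle RNA, but the dnPI3K arrays stood apart from the other 6 in their controls. Myl2, the ventricular myosin light chain, read 33102 to 39263 over the 9 arrays. The geometric mean of the spike-in controls was 2744 to 3287 for caPI3K, 1591 to 2012 for dnPI3K and 2618 to 3356 for NTG ventricles. The 18S ribosomal 3′ control read 475.8 to 545.0 for caPI3K, 3265 to 8567 for dnPI3K and 450.5 to 670.6 for NTG ventricles. The animal numbers of the dnPI3K mice are of a lower series than those of the other 6 mice, so this series cannot be told apart from the dnPI3K genotype. In tissue RNA of this kind, fewer cells of a type and less RNA per cell cannot be told apart. Correlations between arrays over probe sets lay between 0.939 and 0.966.

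The upstream sequences of Psme4, Psmb3, Sem1, Psmb8 and Psmb9 are shown because these genes carry the results that follow. Psme4 and Psmb3 differed between caPI3K and dnPI3K ventricles, Sem1 is the 19S lid gene that moved the other way, and Psmb8 and Psmb9 are the immunoproteasome genes with the widest spread. Each runs 5′ to 3′ on the gene's strand and ends at the base before the RefSeq start of transcription (GRCm38.p6). Capitals mark, on either strand, the letters GGGCGG (known as a GC box). They also mark CCAAT, the box of that name, and GAANNTTC (a heat shock element pair).
Psme4 (chr11:30771525-30771774, plus strand): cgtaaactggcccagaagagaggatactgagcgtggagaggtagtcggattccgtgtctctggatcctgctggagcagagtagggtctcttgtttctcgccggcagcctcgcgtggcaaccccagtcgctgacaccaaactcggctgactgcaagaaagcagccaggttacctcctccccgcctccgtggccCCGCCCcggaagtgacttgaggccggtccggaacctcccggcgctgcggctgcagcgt
Psmb3 (chr11:97703184-97703433, plus strand): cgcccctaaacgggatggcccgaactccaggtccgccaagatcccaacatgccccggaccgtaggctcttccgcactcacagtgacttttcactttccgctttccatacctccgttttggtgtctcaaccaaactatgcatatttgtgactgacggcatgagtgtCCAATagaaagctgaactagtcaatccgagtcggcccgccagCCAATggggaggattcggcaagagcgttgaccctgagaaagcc
Sem1 (chr6:6578659-6578908, minus strand): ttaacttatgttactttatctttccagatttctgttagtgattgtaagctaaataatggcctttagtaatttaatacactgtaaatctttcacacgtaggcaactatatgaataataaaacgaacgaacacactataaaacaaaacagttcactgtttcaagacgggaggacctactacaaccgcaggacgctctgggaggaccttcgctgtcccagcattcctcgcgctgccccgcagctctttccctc
Psmb8 (chr17:34197945-34198194, plus strand): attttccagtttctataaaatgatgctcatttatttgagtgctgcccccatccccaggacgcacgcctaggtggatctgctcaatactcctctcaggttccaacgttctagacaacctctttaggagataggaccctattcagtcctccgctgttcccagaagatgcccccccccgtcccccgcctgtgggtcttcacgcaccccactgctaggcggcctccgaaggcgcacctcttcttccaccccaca
Psmb9 (chr17:34187331-34187555, minus strand): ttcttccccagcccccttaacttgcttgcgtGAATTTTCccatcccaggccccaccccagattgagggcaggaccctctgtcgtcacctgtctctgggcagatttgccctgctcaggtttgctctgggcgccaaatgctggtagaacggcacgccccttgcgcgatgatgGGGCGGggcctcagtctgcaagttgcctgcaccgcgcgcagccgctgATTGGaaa

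Of the 44 genes, 37 had a promoter window in the RefSeq table (the first listed for each gene), reaching 250 bases before to 50 bases after the start. Psmb1, Psmb2, Psmb7, Psmc3, Psmd3, Psmd7 and Psmg2 were not among them. GGGCGG was found in 22 of the 37 windows (59.5%), against 35.9% of all 27025 mouse promoter windows of that length. CCAAT was found in 13 (35.1%), against 37.9% of all windows, and the antioxidant response core TGACNNNGC in 6 (16.2%), against 12.5%. GAANNTTC was found in 2 (5.41%, against 7.95%) and the FoxO site GTAAACA in none of the 37, against 3.55% of all windows. Both strands were searched and overlaps between motifs were not removed. Psme4 has a GC box at -58 relative to the start, Psmb3 has CCAAT boxes at -85 and -43, and the printed Sem1 and Psmb8 stretches hold none of these motifs. The printed Psmb9 stretch is the 225 bases between its start and that of the neighbouring gene Tap1, with a heat shock pair at -194, a GC box at -55 and a CCAAT box at -8. The antioxidant core of Psme4 lies across its start, beyond the printed stretch.

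Of the 44 genes, Psme4 had the largest difference in dnPI3K against NTG ventricles and in caPI3K against dnPI3K ventricles. Psme4 encodes PA200, a nuclear and cytosolic activator known for the degradation of acetylated histones. Its intensity was 2883, 3432 and 3416 in caPI3K ventricles, 1499, 1329 and 1435 in dnPI3K ventricles and 2364, 2619.8 and 2319 in NTG ventricles. The 3 groups did not overlap: every caPI3K array lay above every NTG array, and every dnPI3K array below. Psme4 averaged 1421 ± 86.0 in dnPI3K and 2434 ± 162 in NTG ventricles (SD, n = 3 each), a difference of -0.78 ± 0.0998 (SE; limma adjusted p = 0.00405), to 0.584 of the NTG level. Between caPI3K and dnPI3K ventricles the difference was 1.19 ± 0.0998, or 2.28-fold (adjusted p = 0.000143). Against NTG, caPI3K ventricles differed by 0.41 ± 0.0998, and this did not pass (adjusted p = 0.320, 95% interval 0.19 to 0.63).

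**Figure D1:**
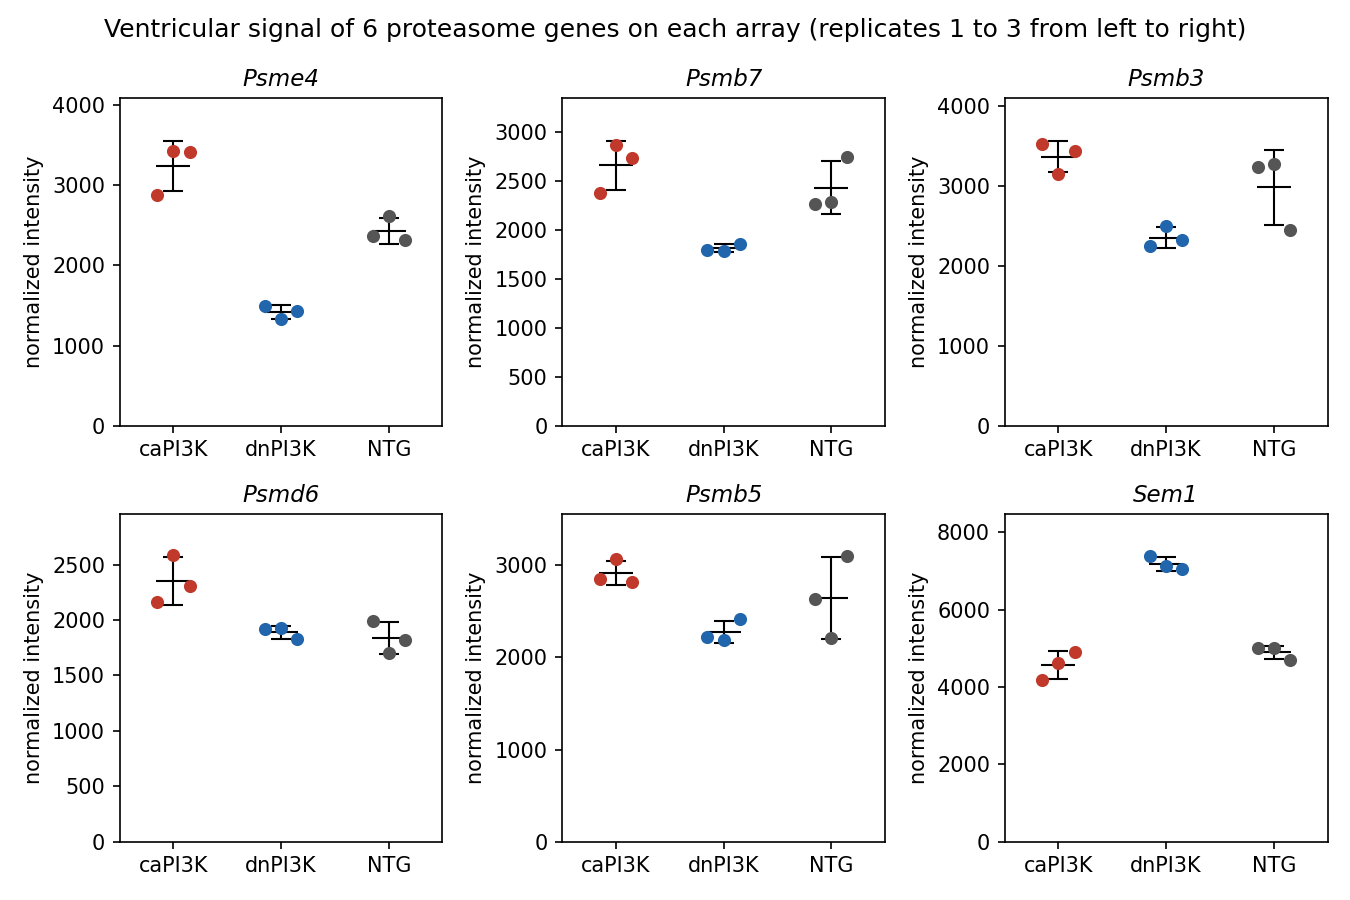
Normalized intensity (linear axis from 0) of 6 genes on each of the 9 arrays, by group, with points for arrays and bars for the mean ± SD (n = 3). The groups do not overlap for Psme4, all dnPI3K arrays lie below the other 6 for Psmb7, and all dnPI3K arrays lie above the other 6 for Sem1.

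Myl1 and Casq1, markers of another muscle type, had the same order of groups as Psme4. Of 6 skeletal muscle markers tested, 5 were lower and 1 higher (by 0.203) in dnPI3K than in NTG ventricles. Among them Myl1 and Casq1 fell, while 2.22% of all genes passed in either direction. The list summed to 3415 to 4332 in dnPI3K ventricles, against 8108 to 11635 in NTG ventricles. In caPI3K ventricles it summed to 14799 to 21650, against the same NTG values, with 3 of the 6 markers higher and 3 lower (median 0.13) and none past the threshold. Most of each caPI3K sum came from Myl1 and Casq1, and Pvalb, a calcium buffer, differed by -0.25. Casq1, a calcium-binding protein of fast muscle, read 3560.1, 5909 and 5428 in caPI3K, 980.9, 650.6 and 683.2 in dnPI3K and 2153, 3117 and 2983 in NTG ventricles; the other 2 of the 8 listed markers did not pass the low-value filter. Of 4 atrial markers, 2 were lower and 2 higher in dnPI3K than in NTG ventricles: Myl4 and Myl7 fell (limma adjusted p = 0.0400 and 0.0476), while Nppa differed by 1.48 and Sln by 0.74 without passing. The list summed to 8684 to 11332 in dnPI3K ventricles, mostly Nppa, against 2118 to 21023 in NTG ventricles. Nppa, the atrial natriuretic peptide gene, was lower in caPI3K than in dnPI3K ventricles, with a difference of -2.22 (adjusted p = 0.0282). Myl4, an atrial light chain, read 498.6, 421.4 and 4304 in caPI3K, 27.9, 49.7 and 36.1 in dnPI3K and 6896, 3669 and 222.7 in NTG ventricles, although the labels give the tissue as ventricle alone. None of 9 ventricular cardiomyocyte markers passed in any comparison. The part of these markers in the Psme4 difference was not tested.

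The other measured activators are known partners of immune peptide processing and of nuclear protein turnover. Psme1 (PA28 alpha), which interferon induces, read 3022, 2901 and 3364 in caPI3K, 4047, 3564 and 3117 in dnPI3K and 3158, 3247 and 2978 in NTG ventricles. Psme3 (PA28 gamma), the nuclear member, read 484.1, 472.9 and 442.3 in caPI3K, 501.2, 539.2 and 622.0 in dnPI3K and 413.2, 511.2 and 663.9 in NTG ventricles. Neither passed in any comparison. All caPI3K arrays lay below all dnPI3K arrays for Psme3, with a difference of -0.24 ± 0.180 (limma adjusted p = 0.568), which is the opposite direction to Psme4.

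The constitutive beta ring was higher in caPI3K than in dnPI3K ventricles for 6 of 7 genes, with a median difference of 0.36, and Psmb3 and Psmb7 passed the test. Of all 7480 genes tested, 3742 were higher in caPI3K than in dnPI3K ventricles and 3.46% passed in either direction (1.86% higher). Psmb7, the subunit with trypsin-like activity, read 2379, 2863 and 2736 in caPI3K ventricles, 1799, 1786 and 1858 in dnPI3K ventricles and 2265, 2280.3 and 2742 in NTG ventricles. All dnPI3K arrays lay below the other 6. Psmb7 was higher in caPI3K than in dnPI3K ventricles by 0.55 ± 0.104 (SE; limma adjusted p = 0.0180). In dnPI3K against NTG ventricles it differed by -0.42 ± 0.104 (adjusted p = 0.0761) and in caPI3K against NTG ventricles by 0.13 ± 0.104 (adjusted p = 0.841). Its probe set is of a kind the array maker marks as shared by a gene family. The call was lost in the absence of caPI3K replicate 2 or 3 or of any dnPI3K array (0.49 to 0.57, adjusted p = 0.0535 to 0.0927), and with no intensity trend (adjusted p = 0.108).

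Psmb3 is a structural beta subunit without a proteolytic site. Its intensity was 3527, 3147 and 3439.7 in caPI3K ventricles, 2247, 2505 and 2322 in dnPI3K ventricles and 3237, 3276 and 2447 in NTG ventricles. All caPI3K arrays lay above all dnPI3K arrays, while NTG replicate 3 lay among the dnPI3K arrays. Psmb3 was higher in caPI3K than in dnPI3K ventricles by 0.52 ± 0.117 (limma adjusted p = 0.0410), and this call was lost without any of the 6 caPI3K and dnPI3K arrays (0.48 to 0.56, adjusted p = 0.0857 to 0.130). It was also lost with each array scaled to the same median (adjusted p = 0.0525), with no filter on dim probe sets (0.0952) and with no intensity trend (0.159). In dnPI3K against NTG ventricles the difference was -0.33 ± 0.117 (adjusted p = 0.213), and without NTG replicate 3 it passed at -0.47 (adjusted p = 0.0308).

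Psmb5, the chymotrypsin-like subunit, read 2849.9, 3059 and 2819.7 in caPI3K ventricles, 2219, 2185 and 2409.8 in dnPI3K ventricles and 2626, 2205 and 3092 in NTG ventricles. All caPI3K arrays lay above all dnPI3K arrays, but the difference of 0.36 ± 0.117 did not pass (limma adjusted p = 0.140). Psmb2 had a difference of 0.43 ± 0.167 (adjusted p = 0.215), which passed without NTG replicate 3 (0.44, adjusted p = 0.0215) and in a fit of both groups compared alone (adjusted p = 0.0352). Psmb6, the caspase-like subunit, differed by 0.35 ± 0.152 and Psmb1 by 0.20 ± 0.116, while Psmb4 differed by -0.03 ± 0.148. A second Psmb1 probe set, which lies on the floor on 1 caPI3K array, gave -0.95 for this comparison and another gave 0.30 (adjusted p = 0.105 and 0.147), so the direction for Psmb1 depends on the probe set. For Psmb4 a second probe set gave 0.39, also opposite to the brightest (adjusted p = 0.786).

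Set against NTG ventricles, all 7 beta genes were lower in dnPI3K ventricles, with a median of -0.20 and a range of -0.42 to -0.04, while 3815 of all 7480 genes tested were higher. None of the 7 passed, against 2.22% of all genes. The direction held for 6 of 7 in the deposited values without quantile normalization and for 5 of 7 with each array scaled to the same median. With 1 array left out, at most 1 of the 7 was higher, and Psmb1 and Psmb4 reached 0.0326 and 0.0319 in different fits. On single arrays the beta ring median, relative to the NTG mean, was -0.26, -0.16 and -0.17 in dnPI3K ventricles and 0.01, 0.06 and 0.01 in NTG ventricles. In caPI3K ventricles it was 0.12, 0.23 and 0.18, so the 3 groups did not overlap in this median. Gene by gene, all caPI3K arrays lay above all NTG arrays for 0 of 7, against 6.91% of all genes. All dnPI3K arrays lay below all NTG arrays for 1 of 7 (Psmb7), against 9.09% of all genes. Both comparisons with NTG share the same 3 control arrays. Against NTG, 6 of 7 beta genes were higher in caPI3K ventricles (median 0.15, and 0.0498 without NTG replicate 3), against 3737 of all 7480 genes. None of them passed by limma, with 0 at an unadjusted p under 0.05 and a smallest adjusted p of 0.808, and 0.107% of all genes passed.

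**Figure D2:**
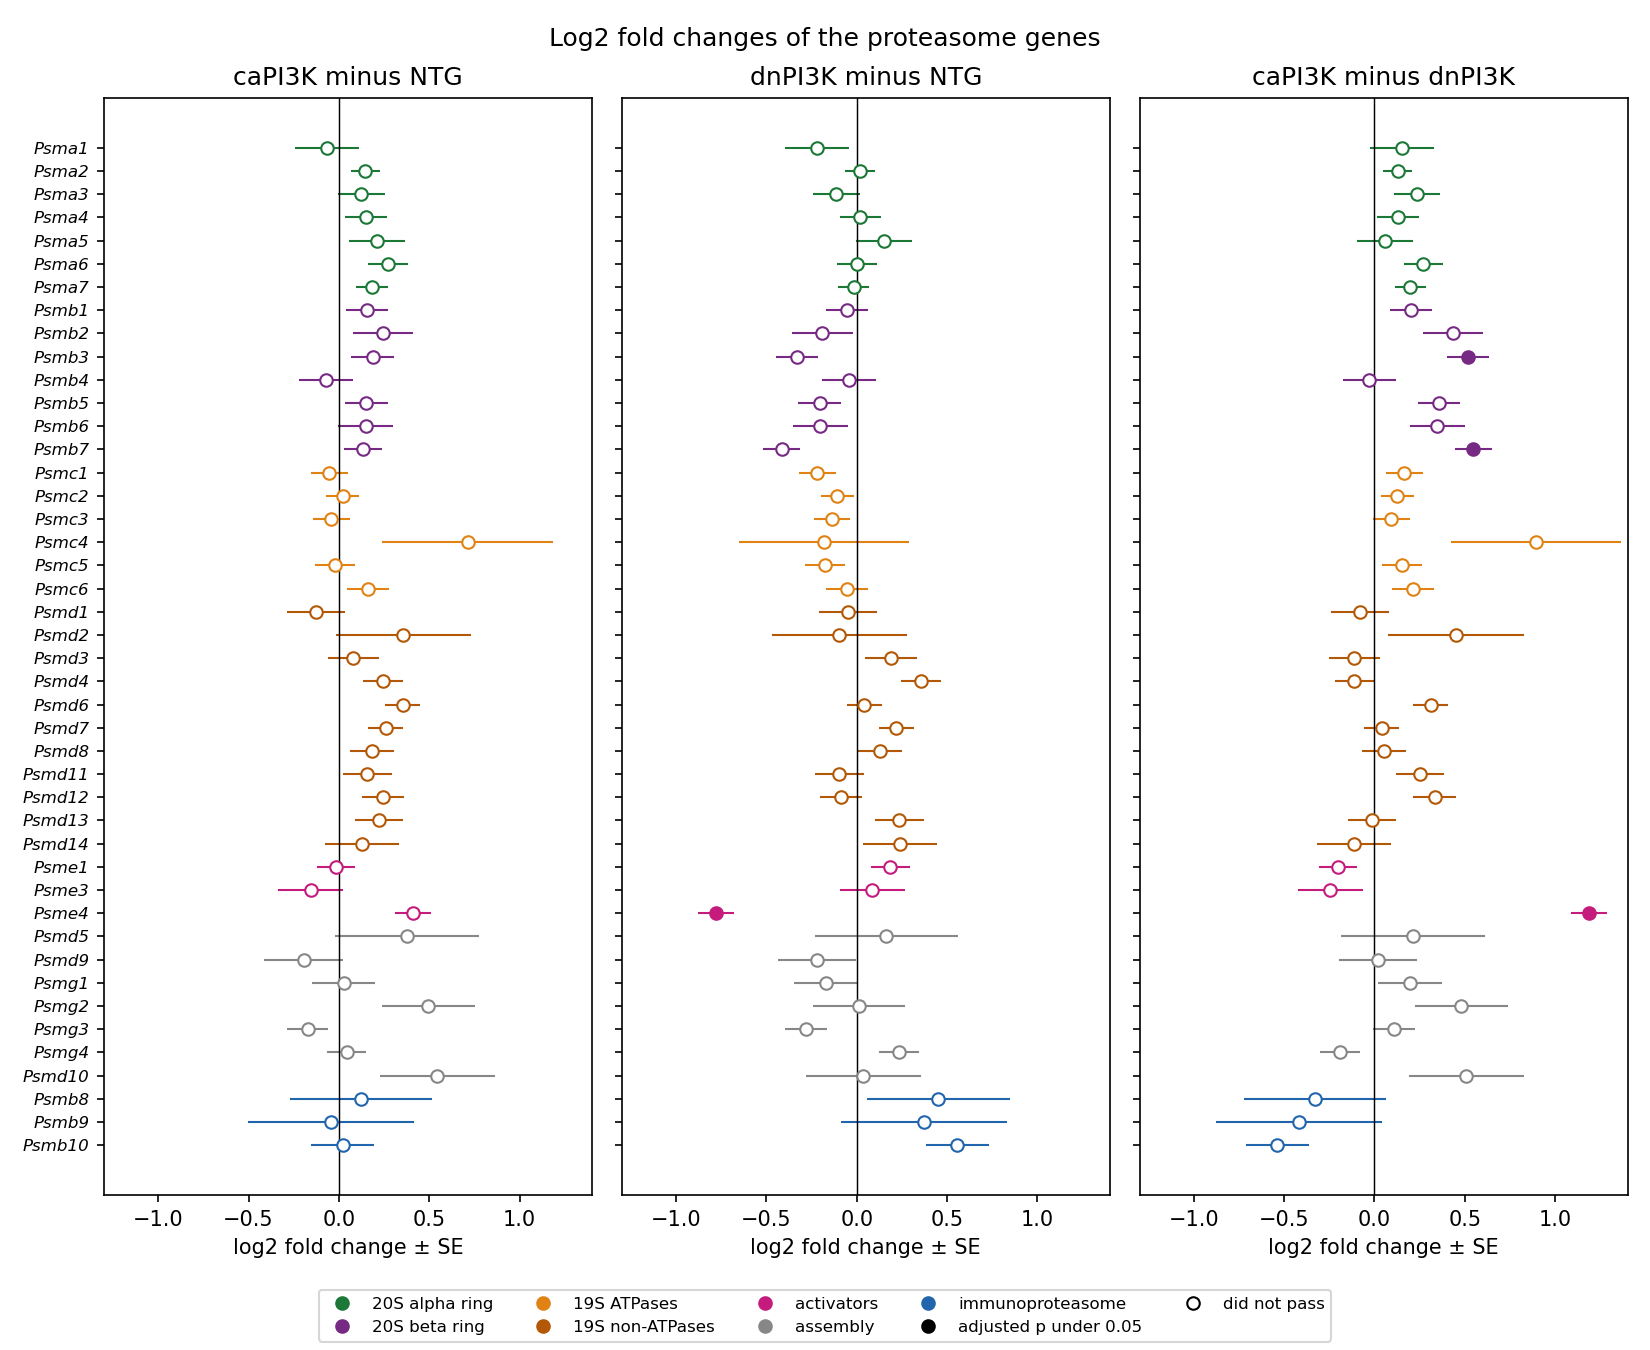
Log2 difference (horizontal axis, with bars of ± 1 SE) of each of the 44 proteasome genes, ordered by class down the page, in 3 panels, one per comparison; filled points passed the test. Psme4 lies farthest from 0 among the genes that passed, and all 7 beta ring genes lie below 0 in dnPI3K against NTG ventricles.

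The alpha ring forms the gate of the core. No alpha gene passed in any comparison. All 7 were higher in caPI3K than in dnPI3K ventricles (median 0.15, range 0.06 to 0.27), and 6 of 7 were higher in caPI3K than in NTG ventricles (median 0.15). Psma6 read 5105, 5885 and 4431 in caPI3K ventricles, 3896, 4411 and 4411 in dnPI3K ventricles and 4074, 4106 and 4517 in NTG ventricles. Every caPI3K array lay above every dnPI3K array, by 0.27 ± 0.109 (limma adjusted p = 0.238). Psma7 read 2099, 2103 and 2333 in caPI3K ventricles, 1932, 1828 and 1931 in dnPI3K ventricles and 1876, 1845 and 2037 in NTG ventricles. Every caPI3K array lay above the other 6, by 0.18 ± 0.0865 against NTG (adjusted p = 0.722). Psma2 read 3454, 3810.2 and 3674 in caPI3K ventricles, 3486, 3092 and 3442 in dnPI3K ventricles and 3329.6, 3319.7 and 3228 in NTG ventricles. For Psma2 the caPI3K arrays lay above all NTG arrays, by 0.15 ± 0.0812 (adjusted p = 0.768). In dnPI3K against NTG ventricles 4 of the 7 alpha genes were higher and 3 lower, with differences of -0.22 to 0.15. With 1 array left out, 1 (without dnPI3K replicate 3) to 6 (without NTG replicate 3) of the 7 were higher, and the caPI3K against NTG median was 0.226 without NTG replicate 3.

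The ATPases of the 19S base were lower in dnPI3K than in NTG ventricles for 6 of 6 genes, with a median of -0.16, and for 5 of 6 with each array scaled to the same median. With 1 array left out, at most 1 of the 6 was higher, and Psmc4 and Psmc6 reached 0.344 and 0.0392 in different fits. The median was -0.0687 without dnPI3K replicate 1 and -0.0840 without NTG replicate 3. None passed. Psmc1 read 1140.5, 1288 and 1299.5 in caPI3K ventricles, 1076, 1134 and 1112 in dnPI3K ventricles and 1185, 1285 and 1405 in NTG ventricles. All dnPI3K arrays lay below the other 6, with a difference of -0.22 ± 0.102 against NTG (limma adjusted p = 0.356). Psmc6 read 4090.4, 5043 and 4965 in caPI3K ventricles, 4055, 3549 and 4567 in dnPI3K ventricles and 4026, 4527 and 4026 in NTG ventricles. The groups overlapped in all comparisons for Psmc6. For Psmc3 in dnPI3K against NTG ventricles the brightest probe set gave -0.14, another gave -0.04 and the remaining one 0.24 (limma adjusted p = 0.715). Psmc4 was near or below the floor of 35.34 on several arrays, with 58.3, 101.9 and 97.2 in caPI3K, 6.1, 15.3 and 72.1 in dnPI3K and 12.6, 26.4 and 105.1 in NTG ventricles, and its differences are therefore imprecise. In caPI3K against NTG ventricles 3 of 6 ATPase genes were higher, with a median close to 0, while 6 of 6 were higher without NTG replicate 3 (median 0.0562) or with each array scaled to the same median (0.0901).

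The non-ATPase subunits of the cap showed another order. Of 11, 10 were higher in caPI3K than in NTG ventricles (median 0.22) and 7 were higher in dnPI3K than in NTG ventricles (median 0.13), while caPI3K and dnPI3K ventricles differed by a median of 0.04. The dnPI3K against NTG median was 0.0684, 0.0509 and 0.0692 without dnPI3K replicate 1, NTG replicate 2 and NTG replicate 3 in turn. The caPI3K against dnPI3K median ranged over 0.00516 to 0.0647 with 1 array left out. It was 0.00516 and 0.0187 without caPI3K replicates 1 and 3, 0.0647 without caPI3K replicate 2, and 0.0269 and 0.00701 without dnPI3K replicates 1 and 2. None of the 11 genes passed. Psmd6 (Rpn7), a scaffold of the lid, read 2165, 2588 and 2304 in caPI3K ventricles, 1920.2, 1931 and 1824 in dnPI3K ventricles and 1992, 1706 and 1824 in NTG ventricles. All caPI3K arrays lay above the other 6, by 0.35 ± 0.0973 against NTG (limma adjusted p = 0.460, 95% interval 0.14 to 0.57). Among the animals numbered in the 2800s, with 2 of each group, the Psmd6 difference was 0.36, and between the 2 animals numbered in the 3100s it was 0.34.

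Psmd4 (Rpn10) is a ubiquitin receptor of the cap. Its intensity was 2566, 2382 and 2677 in caPI3K ventricles, 2543, 2662 and 3048 in dnPI3K ventricles and 2357, 2222 and 1879.9 in NTG ventricles. Every caPI3K and dnPI3K array lay above all NTG arrays, by 0.24 ± 0.109 for caPI3K (limma adjusted p = 0.716) and 0.36 ± 0.109 for dnPI3K (adjusted p = 0.143). Psmd12 (Rpn5), another lid scaffold, read 1120.1, 1317 and 1325 in caPI3K ventricles, 884.2, 1050.2 and 1055 in dnPI3K ventricles and 1095, 976.2 and 1102 in NTG ventricles. The caPI3K arrays lay above the other 6 for Psmd12, by 0.33 ± 0.117 against dnPI3K (adjusted p = 0.173). Psmd7 and Psmd13 also had every caPI3K array above every NTG array, by 0.26 ± 0.0963 and 0.22 ± 0.134. For Psmd11 the brightest probe set gave 0.16 in caPI3K against NTG ventricles, another gave 0.34 and the remaining one -0.06. Psmd14, the deubiquitinase of the lid, differed by 0.13 ± 0.206 in caPI3K and 0.24 ± 0.206 in dnPI3K against NTG ventricles.

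Sem1, a small subunit of the lid that the symbol pattern does not cover, moved in the other direction from Psme4. Sem1 read 4183, 4612 and 4913 in caPI3K ventricles, 7384, 7117 and 7051 in dnPI3K ventricles and 4999.7, 4999.7 and 4711 in NTG ventricles. All dnPI3K arrays lay above the other 6. Sem1 rose in dnPI3K against NTG ventricles by 0.55 ± 0.0814 (limma adjusted p = 0.00752) and was lower in caPI3K than in dnPI3K ventricles, with a difference of -0.66 ± 0.0814 (adjusted p = 0.00167). With no intensity trend the rise against NTG was no longer past the threshold (adjusted p = 0.0884). Its probe set is one the array maker marks as designed under relaxed rules. Sem1 belongs to a list of 24 proteasome-associated and transcriptional control genes, of which 16 were tested. Sem1 alone of these passed, against 2.22% of all genes in dnPI3K against NTG and 3.46% in caPI3K against dnPI3K ventricles. Of the 16, 8 were higher in dnPI3K than in NTG ventricles, against 3815 of all 7480 genes tested. Nfe2l1, the factor known to induce proteasome genes when the protease is inhibited, differed by 0.13 ± 0.0882 in caPI3K and 0.31 ± 0.0882 in dnPI3K against NTG ventricles and did not pass. Bag6, a chaperone that delivers misfolded proteins to the proteasome, differed by 0.34 ± 0.125 in dnPI3K against NTG ventricles (adjusted p = 0.223), with all dnPI3K arrays above all NTG arrays.

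Over all 44 genes, 33 were higher in caPI3K than in NTG ventricles, with a median of 0.15, against 3737 of all 7480 genes tested. None passed in this comparison, in which 0.107% of all genes did, and 5 of the 44 had an unadjusted p under 0.05, against 7.21% of all genes. For 10 genes all caPI3K arrays lay above all NTG arrays, and for 1 gene below, against 6.91% and 5.71% of all genes. In dnPI3K against NTG ventricles 20 were higher and 24 lower (median -0.05), and with each array scaled to the same median 28 were higher (median 0.05). Psme4 was the 1 gene that passed, against 2.22% of all genes (1.22% lower), and 7 had an unadjusted p under 0.05, against 14.9%. The dnPI3K arrays lay above all NTG arrays for 3 genes and below for 5, against 10.2% and 9.09% of all genes. Between caPI3K and dnPI3K ventricles 32 were higher (median 0.15) and 3 passed, against 3.46% of all genes. An unadjusted p under 0.05 was found for 11, against 17.1% of all genes. The caPI3K arrays lay above all dnPI3K arrays for 13 genes and below for 3, against 11.7% and 12.8% of all genes.

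**Figure D3:**
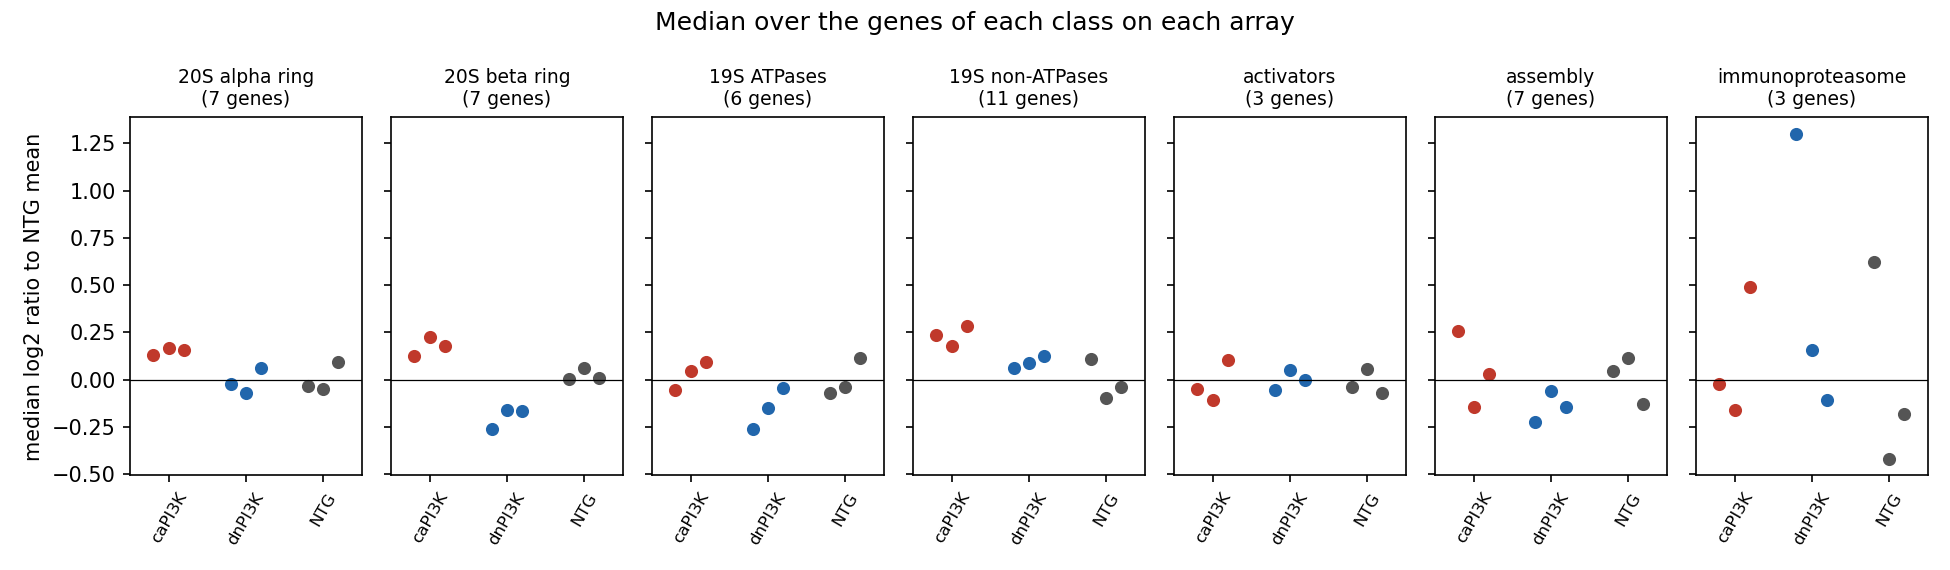
Median log2 intensity of each proteasome class on each array relative to the NTG mean (vertical axis), with 1 point per array and 1 panel per class. The beta ring medians fall into 3 groups that do not overlap, while the immunoproteasome medians spread widely within every group.

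The median over the 44 genes, relative to the NTG mean, was higher on each caPI3K array than on the other 6 arrays. It was 0.08, 0.15 and 0.17 on the caPI3K arrays, -0.0626, -0.0472 and -0.00421 on the dnPI3K arrays and 0.00467, -0.0282 and -0.00122 on the NTG arrays. Among the animals numbered in the 2800s the caPI3K minus NTG median was 0.08, with 32 of 44 genes above 0, and between the 2 animals numbered in the 3100s it was 0.18, with 27 of 44 above 0. The summed intensity of the 31 constitutive 26S genes was 67063 to 70741 for caPI3K, 59491 to 62384 for dnPI3K and 62187 to 63744 for NTG ventricles.

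The immunoproteasome genes Psmb8 and Psmb9 varied widely within every group, while Psmb10 varied about as much as the median gene tested. Psmb8 read 868.9, 774.1 and 1201 in caPI3K ventricles, 2109.5, 955.6 and 794.7 in dnPI3K ventricles and 1315, 495.2 and 962.1 in NTG ventricles. Psmb9 read 352.0, 444.3 and 713.2 in caPI3K ventricles, 1282, 543.0 and 381.6 in dnPI3K ventricles and 874.9, 371.3 and 377.3 in NTG ventricles. Psmb10 read 1824, 1619.8 and 2244 in caPI3K ventricles, 3361, 2431 and 2479 in dnPI3K ventricles and 2316, 1679 and 1635 in NTG ventricles. In every group the same array was highest for all 3 genes: caPI3K replicate 3, dnPI3K replicate 1 and NTG replicate 1. None of the 3 passed in any comparison. For Psmb10 all dnPI3K arrays lay above the other 6, by 0.56 ± 0.175 against NTG (limma adjusted p = 0.155). For Psmb8 and Psmb9 the groups overlapped, with dnPI3K minus NTG differences of 0.45 ± 0.394 and 0.37 ± 0.458. The pooled SD within groups, on the log2 scale, was 0.629 for Psmb8, 0.725 for Psmb9 and 0.261 for Psmb10. Its median was 0.629 over these 3 genes and 0.151 over the 31 constitutive 26S genes, against 0.265 over all genes tested. Among the constitutive genes, Psmc4 and Psmd2, which lay near the floor, reached 0.677 and 0.500.

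Many interferon and MHC class I genes were highest on the same arrays. Of 21 tested, 12 (57.1%) were highest on those same 3 arrays, against 3.29% of all genes tested, and none passed in any comparison. Tap1, the peptide transporter gene that shares an upstream interval with Psmb9 on chromosome 17, read 330.5, 431.5 and 640.4 in caPI3K ventricles, 917.7, 461.1 and 357.6 in dnPI3K ventricles and 653.5, 295.4 and 386.2 in NTG ventricles. H2-K1, an MHC class I heavy chain, read 6977, 8008 and 8866 in caPI3K ventricles, 15918, 7793 and 6203 in dnPI3K ventricles and 9664, 4216 and 5925 in NTG ventricles. The summed intensity of 22 leukocyte markers was also highest in each group on those arrays, with 17303 on caPI3K replicate 3, 22043 on dnPI3K replicate 1 and 19937 on NTG replicate 1. On the other arrays it was 13429 and 15071 in caPI3K, 10892 and 11835 in dnPI3K and 11281 and 11418 in NTG ventricles. The part of leukocytes in the immunoproteasome values was not tested.

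**Figure D4:**
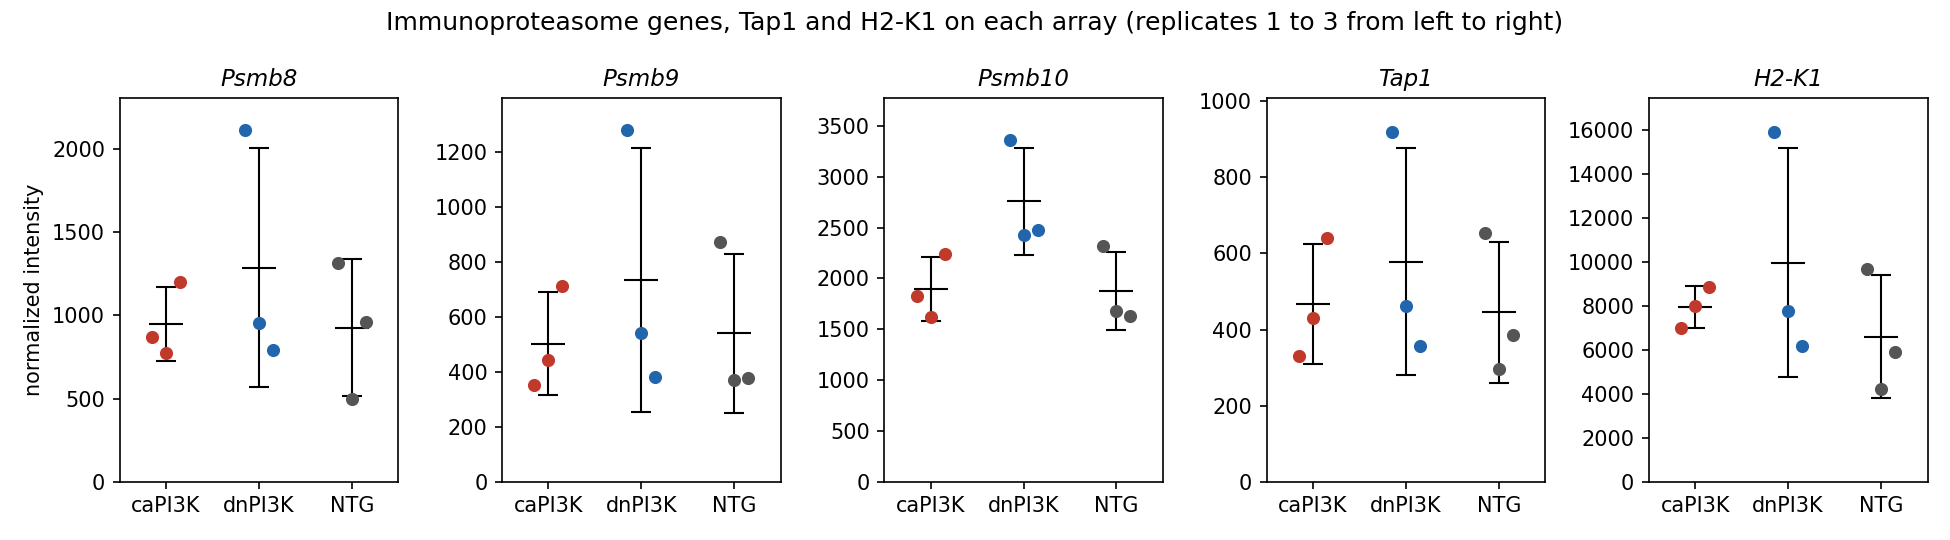
Normalized intensity (linear axes from 0) of Psmb8, Psmb9, Psmb10, Tap1 and H2-K1 on each of the 9 arrays, by group, with points for arrays and bars for the mean ± SD (n = 3). In each panel the highest point is dnPI3K replicate 1, and the highest points in caPI3K and NTG ventricles are replicate 3 and replicate 1.

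None of the 7 assembly genes passed in any comparison. Psmg1 to Psmg4 encode chaperones of the core, and Psmd5, Psmd9 and Psmd10 chaperones of the 19S base. Psmg3 read 1510.5, 1456 and 1453 in caPI3K ventricles, 1488, 1466 and 1170.0 in dnPI3K ventricles and 1680.3, 1794 and 1518 in NTG ventricles. Every caPI3K and dnPI3K array lay below all NTG arrays for Psmg3, with differences of -0.17 ± 0.114 for caPI3K and -0.28 ± 0.114 for dnPI3K (limma adjusted p = 0.814 and 0.277). A second Psmg3 probe set gave -0.68 in caPI3K against dnPI3K ventricles, where the brightest gave 0.11. Psmg4 read 891.3, 856.5 and 865.1 in caPI3K ventricles, 1117, 897.3 and 979.2 in dnPI3K ventricles and 821.9, 883.8 and 833.3 in NTG ventricles. All dnPI3K arrays lay above the other 6 for Psmg4, by 0.23 ± 0.110 against NTG (adjusted p = 0.359). Psmg2 read 478.8, 453.4 and 472.7 in caPI3K ventricles, 273.0, 318.5 and 434.1 in dnPI3K ventricles and 415.7, 222.2 and 398.2 in NTG ventricles, and the caPI3K arrays lay above the other 6.

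The wider ubiquitin pathway gave few calls. Of 27 genes for ubiquitin and its activation and conjugation, 15 were tested and none passed in any comparison. In caPI3K against dnPI3K ventricles 12 of the 15 were higher (median 0.19). Ube2g1, a ubiquitin-conjugating enzyme, differed by 0.40 ± 0.102 in caPI3K against dnPI3K ventricles (limma adjusted p = 0.0680), and passed in 3 of 19 alternative settings. These were without NTG replicate 3 (adjusted p = 0.0228), the fit of both groups compared alone (0.0356) and the deposited values without quantile normalization (0.0459). Of 14 muscle ubiquitin ligases and atrophy genes, 7 were tested, and 2 passed between caPI3K and dnPI3K ventricles, against 3.46% of all genes. Cul3, the scaffold of a family of ubiquitin ligases, was higher in caPI3K than in dnPI3K ventricles by 0.42 ± 0.0967 (adjusted p = 0.0419). Foxo3, a transcription factor that Akt restrains, read 873.6, 669.0 and 682.2 in caPI3K ventricles, 1568, 1417 and 1624 in dnPI3K ventricles and 651.8, 767.0 and 1478 in NTG ventricles. Foxo3 was lower in caPI3K than in dnPI3K ventricles, with a difference of -1.06 ± 0.252 (adjusted p = 0.0489). NTG replicate 3 lay within the range of the dnPI3K arrays, and without it Foxo3 was higher in dnPI3K than in NTG ventricles by 1.12 (adjusted p = 0.00670, against 0.180 with it). The Cul3 call was lost without any 1 array other than NTG replicate 3 (0.37 to 0.49, adjusted p = 0.0536 to 0.159). The Foxo3 call was lost without any caPI3K or dnPI3K array or NTG replicate 2 (-1.18 to -0.99, adjusted p = 0.0599 to 0.162).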

How the data were processed

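RNA of the ventricles of 9 mice was measured on 1-colour oligonucleotide arrays, scanned at a photomultiplier setting of 10% per the labels. The deposited table holds intensities of 12488 probe sets. How the authors obtained them from the scans is not given in the sources; the mean without the 2% at either end is 500.4 on every array. Groups were read from the titles, and replicates were numbered by deposition order, which pairs no mice.

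Quantile normalization was followed by a floor at percentile 20 (35.34) and the log2 transform. Probe sets above the floor on at least 3 of 9 arrays were tested. Means and SDs are of normalized intensities before the floor. The fit used limma 3.58.1 in R 4.3.3 with 1 term for group over all 9 arrays and an intensity trend, with 6 residual degrees of freedom. Adjusted p-values are Benjamini-Hochberg values over all probe sets tested, two-sided, and SE is the moderated standard error. The fit, without the normalization and filter, was tested on simulated data with planted differences larger than most of those reported here. Smaller differences were not simulated. The number of arrays limits the precision.

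A gene is represented by its brightest probe set over the 9 arrays. Values per array are given for Psme4, Psmd6, Psmb7 and Psmb3, the immunoproteasome genes and activators, each member past the threshold, and up to 3 members of each class with the smallest p of the moderated F. Of other pathway genes, those past the threshold and up to 4 per list by the same p were eligible; Tap1, H2-K1 and the marker genes were singled out after their values were seen. The members and the lists were chosen with earlier results of these data known. Alternatives were other scaling, other floors and filters, no trend, robust moderation, the mean over the tested probe sets of a gene, fits of 2 groups, a block for the series of animal numbers, and leaving out each array. Upstream sequences are from RefSeq (GRCm38.p6), matched by symbol.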

Additional observations from a re-analysis of the deposited data

Results flagged for a closer look

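Psme4, Psmb7 and Psmb3 had higher means in caPI3K and lower means in dnPI3K ventricles than on the same NTG arrays. The difference between both transgenic groups passed the limma test. Against NTG, none of them passed in caPI3K ventricles (limma adjusted p = 0.320, 0.841 and 0.808 in turn). In dnPI3K ventricles Psme4 alone passed against NTG (adjusted p = 0.00405, with 0.0761 for Psmb7 and 0.213 for Psmb3). The caPI3K minus dnPI3K difference was 1.19 for Psme4 (limma adjusted p = 0.000143), 0.547 for Psmb7 (adjusted p = 0.0180) and 0.516 for Psmb3 (adjusted p = 0.0410). All 3 caPI3K arrays lay above all 3 dnPI3K arrays for each of the genes. Groups of 3 arrays are too small for a check of single arrays that stand apart.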

How the results depend on the processing

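The Psme4 call held in all 19 alternative settings for dnPI3K against NTG ventricles (-0.82 to -0.68, limma adjusted p = 0.00322 to 0.0439) and for caPI3K against dnPI3K ventricles (1.14 to 1.27, adjusted p = 0.000121 to 0.00537). Sem1 passed in 18 of 19 for dnPI3K against NTG and in 19 of 19 for caPI3K against dnPI3K ventricles. Between caPI3K and dnPI3K ventricles Psmb7 passed in 13 of 19, Psmb3 in 10, Foxo3 in 9 and Cul3 in 7. The number of proteasome genes past the threshold in this comparison was 3. It was 1 with no intensity trend, and 1 to 4 with 1 array left out (4 without NTG replicate 3, where Psmb2 also passed). It was 1 without caPI3K replicate 2 or 3 and without any dnPI3K array. For dnPI3K against NTG ventricles it was 1, and 1 to 2 with 1 array left out, the higher count being without NTG replicate 3, where Psmb3 also passed. The median over the 44 genes in caPI3K against NTG ventricles was 0.149, and 0.253 with each array scaled to the same median. In dnPI3K against NTG ventricles it was -0.0458, 0.0461 with each array scaled to the same median, and -0.0519 to -0.00723 with 1 array left out, nearest 0 without dnPI3K replicate 2. With that scaling the median of all genes was 0.0492 for caPI3K and 0.0433 for dnPI3K against NTG ventricles, where quantile normalization gave 0.0 and 0.0073. No paired analysis was possible because replicates were numbered by deposition order, which pairs no mice. With a block for the series of animal numbers, in a fit of caPI3K and NTG arrays alone, Psme4 differed by 0.412 (adjusted p = 0.525) and Psmd6 by 0.353 (adjusted p = 0.625). For the called proteasome and pathway genes, no difference reversed in these alternatives within the comparison in which the gene was called. In caPI3K against NTG ventricles, where neither passed, Sem1 (-0.104) and Foxo3 (-0.297) reached 0.0380 and 0.0576.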

Other observations

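Psmc3ip, a recombination factor of meiosis that is no proteasome subunit, read 240.9, 268.0 and 170.6 in caPI3K ventricles, 100.3, 194.9 and 158.3 in dnPI3K ventricles and 113.0, 153.5 and 163.8 in NTG ventricles. All caPI3K arrays lay above all NTG arrays, and the difference did not pass (0.65, limma adjusted p = 0.730). With 3 arrays per group, an uncalled proteasome gene is not shown to be alike between groups: the 95% interval of Psmd6 in caPI3K against NTG ventricles reached from 0.14 to 0.57. Psmc4 and Psmd2 lay near the floor. Protein levels, proteasome activity and the assembly state of the complex were not measured.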
